A study of Mus musculus with 2 samples.

Results

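The nuclear genes for the oxidative phosphorylation machinery were followed across the immune cells of mouse liver. Members were chosen by symbol alone, as the rows of the count table beginning with Ndufa, Ndufb, Ndufc, Ndufs, Ndufv, Uqcr, Cox4, Cox5, Cox6, Cox7, Cox8 or Atp5, together with Sdha, Sdhb, Sdhc and Sdhd. This gave 88 of the 13528 genes, of which 36 belong to complex I, 4 to complex II, 8 to complex III, 15 to complex IV and 17 to ATP synthase (complex V), while 8 (Ndufaf1 to Ndufaf8) are complex I assembly factors. Ndufa4 was counted under complex IV, where its protein sits. Cox7a2l, a factor for supercomplexes, and Atp5s, which is no structural part of ATP synthase, stayed members because their symbols match. Not every subunit has such a symbol, and Cyc1 of complex III is left out by the rule.

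Cells positive for CD45 were taken from the livers of TG mice, which carry dnTGFβRII (a human type II receptor for TGF-β in dominant negative form, expressed from the mouse CD4 promoter) and model primary biliary cholangitis, and of wild type (WT) mice. Both are labelled C57BL/6 and 10 weeks old, although the methods give a younger age. Polyadenylated transcripts were captured with cell barcodes and unique molecular identifiers (UMIs, 1 per captured molecule) in 2 libraries. TG mice shared the first library with IFN-γ ARE-Del-/- mice, WT mice shared the second with P40-/-IL-2Ra-/- mice, and the deposited cell table names 4647 TG and 7282 WT cells. How many mice entered each pool is not given in the sources used here. Each genotype was thus read from 1 library without replicates, no test could be made, and the genotype cannot be told apart from its capture library. Brackets hold exact 95% intervals, taken as Clopper-Pearson intervals of shares and as conditional binomial intervals of ratios, which cover counting error only. Levels are given in CPM, the usual unit in which the UMIs of a gene are divided by all UMIs of the same cells and scaled to a common total, without division by transcript length, so a difference in level between genes is not a difference per length.

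Oxidative phosphorylation passes electrons from NADH (complex I) or succinate (complex II) through complex III to oxygen at complex IV. The protons pumped on the way drive ATP synthase. Most subunits are encoded in the nucleus and imported, whereas a small core of complexes I, III, IV and V is encoded by the mitochondrial genome and complex II is wholly nuclear. T cells are known to enlarge their mitochondria and respiration when they are activated and divide, while neutrophils rest mainly on glycolysis.

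The TG cells held about 18498500 UMIs with a median of 3298 per cell, and the WT cells about 22216400 with a median of 2653.5. All 88 members had the same counts in the filtered table as in the library files for the named cells. Tgfbr2, which the transgene should add to, stood at 296 and 153 CPM in CD8αβ T cells of TG and WT mice and at 218 and 231 CPM in mature B cells. Hepatocyte and endothelial transcripts were low in every class, with Alb at most 13.4 CPM and Stab2 and Clec4g at most 33.9 CPM. Some deposited class names went against part of their markers. The class named Mono (cluster 5) carried the neutrophil markers S100a8 at 21352 and 10770 CPM and Csf3r at 2857 and 2955 CPM (TG and WT). Of the monocyte markers, Ccr2 was at only 21.7 and 40.1 CPM and Ly6c2 at 436 and 296 CPM, while Lyz2 stood at 1871 and 1420 CPM. Lyz2 was also high in the class named neutrophil, at 13794.5 and 10449 CPM. The class named NK held Cd3e at 1158 (TG) and 97.7 CPM (WT). The WT cells of the class named CD8αα held Trdc at 854 CPM and Hba-a1 at 1612 CPM, against 95.05 and 1.5 CPM in TG. Kupffer cell genes were almost absent from TG Macro cells, where C1qa had 1 UMI against 346 in WT. These classes are called by their deposited names below, and the part of these markers in any result was not tested. A cell barcode index was shared by both libraries for 36 named cells.

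The 250 bases upstream of the RefSeq transcript start (assembly GRCm38.p6) are shown for 5 members on which the results turn. Uqcr10 and Atp5j2 had the highest median ratios of TG over WT among the members tested in each of 9 classes. Sdhb was among the members furthest above the other CD8αβ T cells in cluster 7. Atp5g2 had the widest range over classes in TG among members with at least 50 UMIs in each of the 9 classes. Uqcrh was among the few members lower in cluster 7. Each is printed from 5′ to 3′ on the strand of its gene, with motif matches in capitals. Their places are chr11:4704345-4704594 (minus strand) for Uqcr10, chr5:145191542-145191791 (minus) for Atp5j2, chr4:140961021-140961270 (plus) for Sdhb, chr15:102671048-102671297 (minus) for Atp5g2 and chr4:116075071-116075320 (minus) for Uqcrh. In a second annotation the windows of Atp5j2 and Atp5g2 lie inside the gene, whose upper ends are at 145192062 and 102672352. The Sdhb window there runs past the gene start at 140961203. These windows are thus upstream of the RefSeq start only.
Uqcr10: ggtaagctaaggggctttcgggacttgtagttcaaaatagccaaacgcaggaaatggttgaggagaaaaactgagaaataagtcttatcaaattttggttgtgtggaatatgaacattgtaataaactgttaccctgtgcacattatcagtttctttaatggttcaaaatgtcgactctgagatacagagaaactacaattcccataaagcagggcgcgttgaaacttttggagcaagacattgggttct
Atp5j2: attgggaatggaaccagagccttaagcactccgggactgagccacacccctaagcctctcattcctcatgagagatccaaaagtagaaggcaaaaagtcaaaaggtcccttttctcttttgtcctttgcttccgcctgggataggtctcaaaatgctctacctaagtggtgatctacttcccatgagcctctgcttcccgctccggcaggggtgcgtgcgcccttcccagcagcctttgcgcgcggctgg
Sdhb: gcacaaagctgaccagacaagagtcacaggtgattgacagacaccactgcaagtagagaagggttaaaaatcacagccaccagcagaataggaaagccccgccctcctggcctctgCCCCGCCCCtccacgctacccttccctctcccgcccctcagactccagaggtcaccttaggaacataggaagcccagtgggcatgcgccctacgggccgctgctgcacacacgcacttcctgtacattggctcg
Atp5g2: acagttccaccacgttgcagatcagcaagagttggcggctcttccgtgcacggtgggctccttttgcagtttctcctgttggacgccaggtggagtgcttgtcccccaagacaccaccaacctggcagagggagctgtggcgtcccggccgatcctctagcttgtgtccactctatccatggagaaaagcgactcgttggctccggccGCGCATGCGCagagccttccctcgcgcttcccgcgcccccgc
Uqcrh: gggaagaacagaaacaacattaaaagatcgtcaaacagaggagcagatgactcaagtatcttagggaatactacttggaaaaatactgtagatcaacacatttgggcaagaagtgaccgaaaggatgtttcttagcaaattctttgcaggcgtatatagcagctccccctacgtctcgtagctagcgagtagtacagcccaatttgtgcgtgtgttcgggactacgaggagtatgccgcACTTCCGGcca

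Motif strings were searched on both strands. They were GCGC, any base and TGCGC for NRF1 (nuclear respiratory factor 1), CCGGAAGT for the ETS factors, which include GABP, AAGATGGCG for YY1, and GGGGCGGGG for the SP factors. None of these strings lies within another. All 88 members matched RefSeq by symbol and 74 had a window. The NRF1 string was found in 14 of the 74 members (18.9%) and in 4.23% of 27025 genes. It was found in 6 of 32 complex I members, 2 of 3 complex II members (Sdha and Sdhd), 0 of 5 complex III members, 1 of 12 complex IV members (Cox6a1), 4 of 15 complex V members (Atp5c1, Atp5g2, Atp5h and Atp5k) and 1 of 7 assembly factors (Ndufaf4). The other strings were in 4.05% of members against 3.23% of genes (ETS), 1.35% against 0.71% (YY1) and 14.9% against 11.8% (SP). In the printed windows, Atp5g2 holds GCGCATGCGC, which reads as the NRF1 string on both strands, Sdhb holds an SP match and Uqcrh an ETS match, both on the opposite strand, while none of the 4 strings occurs in the windows of Uqcr10 and Atp5j2. A match is a description of these letters and not evidence of binding.

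Together the members made up 1.31% of all UMIs in TG and 1.25% in WT, that is 243014 and 277822 UMIs. Complex I members, the entry point for NADH, ran from 20.3 CPM for Ndufb2 in TG and 19.94 CPM for Ndufa11 in WT to 260.6 and 249.8 CPM for Ndufa2. The 4 subunits of succinate dehydrogenase (complex II) lay close together: Sdha, the flavoprotein, was at 118.5 (TG) and 126.3 CPM (WT), Sdhb, the iron-sulphur subunit, at 95.1 and 76.5 CPM, and the membrane anchors Sdhc and Sdhd at 76.5 and 78.1 CPM and at 97.9 and 87.5 CPM. Complex III members reached 458 and 502 CPM for Uqcrh, the hinge protein. Complex IV and V held members at both ends, with Cox7a1 at 0.649 and 0.540 CPM and Cox8a at 638 and 566 CPM, and with Atp5s at 5.8 and 6.5 CPM and Atp5g2 at 607 and 500.2 CPM. The assembly factors went from 6.6 (TG) and 8.1 CPM (WT) for Ndufaf6 to 36.4 CPM for Ndufaf8 in TG and 42.7 CPM for Ndufaf4 in WT.

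Lymphocytes held the members at higher shares than granulocytes. CD8αβ T cells stood first in TG at 1.60% of UMIs [1.59 to 1.61] and reached 1.42% [1.40 to 1.43] in WT. CD4 T cells were at 1.47% [1.45 to 1.501] and 1.25% [1.23 to 1.26], NKT cells at 1.42% and 1.33%, NK cells at 1.38% and 1.36%, and CD8αα cells at 1.34% and 1.35%. Plasmacytoid dendritic cells (pDC) were at 1.41% in TG and 1.38% in WT and Macro cells at 1.39% and 1.27%, so the myeloid side was not uniformly low. Immature B cells at 1.10% and 1.13% and mature B cells at 0.988% and 0.987% lay below every T cell class in both libraries, with intervals that did not overlap those of the T cells. The lowest shares were in the class named Mono, 0.556% [0.537 to 0.575] in TG and 0.602% [0.582 to 0.624] in WT, with neutrophils at 0.756% and 0.871% and basophils at 0.817% and 0.747%. In WT, γδ T cells (1.42% [1.39 to 1.45]) could not be separated from CD8αβ T cells, nor pDC from NK cells. The order among T and NK cells depended on the total used. Ribosomal protein transcripts were 19.7% of UMIs in WT CD4 T cells and 10.3% in WT NK cells. Without ribosomal protein and mitochondrially encoded genes, WT CD4 T cells were at 1.70%, NKT at 1.67%, NK at 1.59% and CD8αα cells at 1.58%. Outside cluster 7, which holds dividing cells, CD8αβ T cells were at 1.41% in TG and 1.25% in WT.

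**Figure D1:**
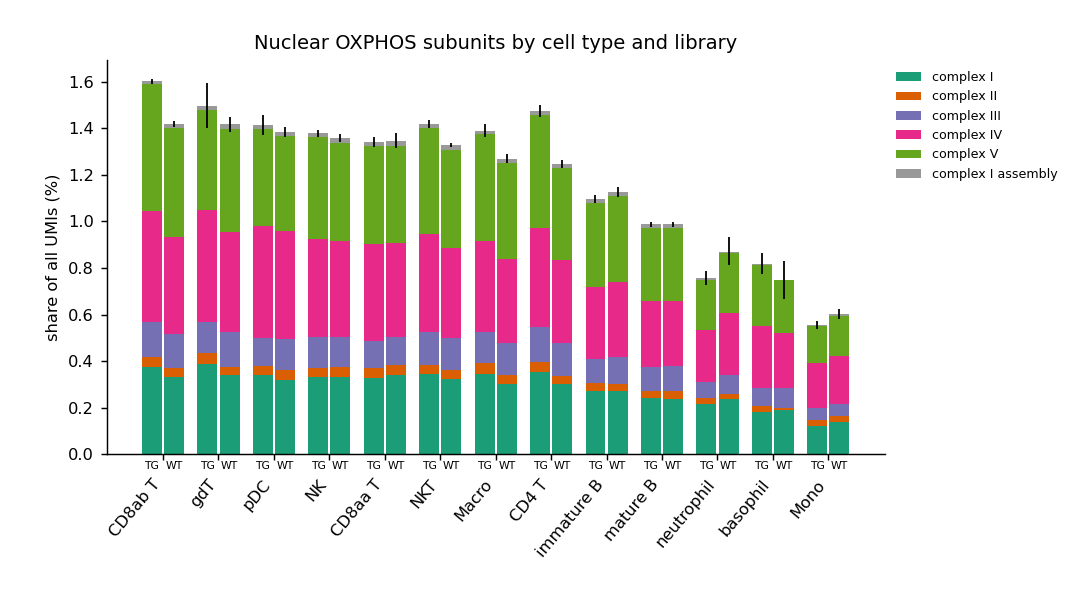
Stacked bars give the percent of all UMIs that fell on the members in 13 deposited classes, by complex, with TG and WT side by side and the classes ordered by the WT value; the error bar is the 95% Clopper-Pearson interval of the total. CD8αβ T cells reach 1.60% in TG and 1.42% in WT, mature B cells 0.988% and 0.987%, and the class named Mono 0.556% and 0.602%.

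The fraction of member UMIs taken by each complex varied between classes. Over the 9 classes with at least 100 cells in both libraries, complex I took 22.3% to 24.7% of member UMIs in TG and 22.9% to 25.4% in WT, and complex III 8.86% to 10.6% and 8.67% to 11.3%. Complex V took 28.6% to 33.99% in TG and 28.2% to 33.1% in WT, with CD8αβ T cells highest and Mono lowest in both. Complex IV took its highest fraction in Mono, at 34.4% in TG and 34.3% in WT against medians over classes of 29.6% and 28.9%. Complex II also took its highest fraction in Mono, 4.06% and 4.57% against medians of 2.96% and 2.98%. Per all UMIs, the fold between the highest and the lowest class was 3.42 in TG and 2.76 in WT for complex V, 2.12 and 1.47 for complex II, and 2.88 and 2.35 for all members.

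The range over classes differed from member to member. Among the 23 TG and 20 WT members with at least 50 UMIs in each of the 9 classes, the median log2 range over classes was 1.29 and 1.07. The widest of the 23 in TG were 4 genes of ATP synthase and 1 of complex IV. This make-up also depends on which members reached 50 UMIs in each class, and the share of each complex among the 23 is not given here. Atp5g2, for the membrane ring subunit c, went from 821 CPM in CD8αβ T cells to 96.96 CPM in Mono (log2 range 3.08), and Atp5g3, for the same subunit, from 568 to 96.96 CPM (2.55). Atp5a1 (subunit α), Atp5h (subunit d) and Cox6c had log2 ranges of 2.40, 2.15 and 1.98. In WT, Atp5a1 went from 563 to 153 CPM (1.88) and Atp5h had a range of 1.86, beside Cox7c at 1.96, Cox7a2l at 1.41 (550 CPM in CD4 T cells and 207 CPM in Mono) and Uqcrh at 1.34. Mono was the lowest class for each of these. In WT Mono, Atp5g2 and Atp5g3 had under 50 UMIs and were left out of the ranges, although Atp5g2 stood at 613 CPM in CD8αβ T cells and 86.1 CPM in Mono.

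Nuclear members and the 13 protein genes of the mitochondrial genome were not in a fixed ratio. Mature B cells had the lowest member share of the lymphocytes but a mitochondrially encoded share of 7.51% in TG and 8.05% in WT, so that 0.132 [0.130 to 0.133] and 0.123 [0.121 to 0.124] nuclear UMIs were counted per mitochondrial UMI. NK cells had 0.336 and 0.327 and CD8αα cells 0.336 and 0.301. Neutrophils, low in both sets, had 0.498 [0.475 to 0.522] and 0.391 [0.360 to 0.424]. CD8αβ T cells had 0.287 [0.284 to 0.289] in TG and 0.208 [0.206 to 0.211] in WT, and CD4 T cells 0.269 and 0.176. Every one of the 13 classes had the higher ratio in TG. A UMI of a polyadenylated mitochondrial transcript and a nuclear UMI come from separate compartments, and the mitochondrial share is also a measure of cell quality, whose part in these ratios was not tested.

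**Figure D2:**
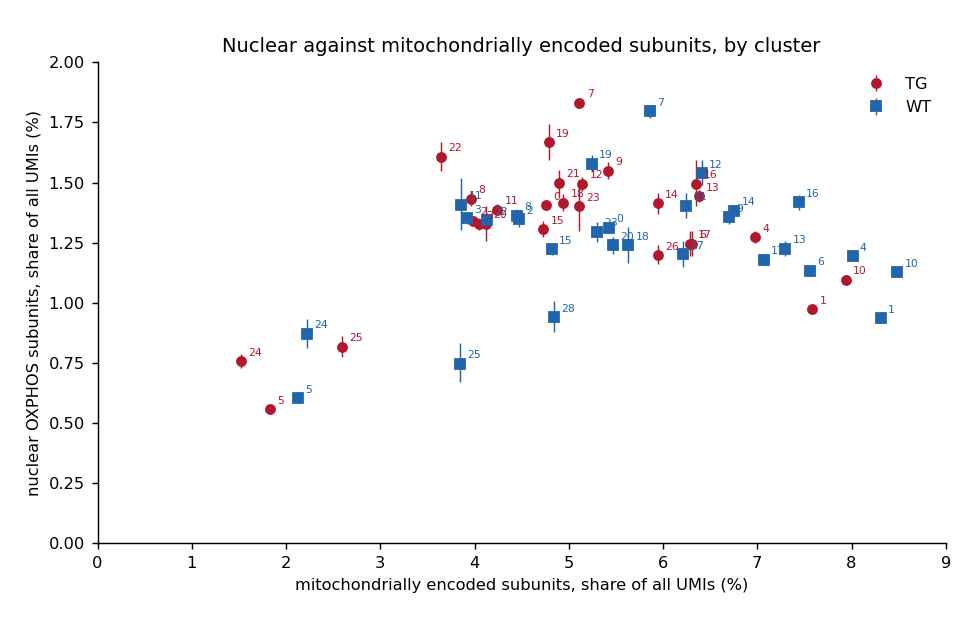
Each point is a cluster in the TG (red circles) or WT library (blue squares), with the mitochondrially encoded share of UMIs in percent on the x axis and the member share in percent on the y axis; vertical bars are 95% intervals of the member share. The main B cell cluster (cluster 1) lies to the right and low, Mono and neutrophil clusters at the lower left, and cluster 7 on top at 1.83% (TG) and 1.80% (WT).

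Several complex IV and V subunits exist as isoforms from separate genes, and 1 of these marked a single cell type. Cox6a2, the isoform best known from heart and muscle, had 306 of its 364 TG UMIs and 1124 of its 1147 WT UMIs in pDC, which were 0.990% and 3.01% of the cells. Its level was 1090 CPM in TG pDC against 3.18 CPM in the other TG cells, a fold of 342 [258 to 462], and 1070 against 1.09 CPM in WT, a fold of 985 [653 to 1561]. The class is well marked, with Siglech, a pDC receptor, at 3028 and 4304 CPM. Cox6a1, the widely used isoform, did not differ beyond counting error. It stood at 353 CPM in TG pDC and 404 CPM elsewhere, a log2 ratio of -0.19 [-0.50 to 0.09], and at 382 and 389 CPM in WT. Cox6a2 therefore made up 75.6% [71.1 to 79.7] and 73.7% [71.4 to 75.9] of the UMIs of the pair in pDC, against 1.66% and 0.366% in mature B cells and 0 of 108 and 0 of 126 UMIs in Mono. Cox6a2 lies at chr7:128205435-128206387 on the minus strand and shares exonic positions with Itgad on the opposite strand.

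The other isoform families were less divided. Cox7a1, again known from heart and muscle, had 12 UMIs in each library, 8 of the 12 in TG in CD8αβ T cells and 5 of the 12 in WT in Macro cells. Cox6b2, known from testis, had 31 and 20 UMIs, of which 8 and 7 fell in Macro cells. Cox7a2l made up 65.0% of the UMIs of the Cox7a family in TG and 71.3% in WT, with 76.0% and 78.0% in mature B cells 56.9% and 64.6% in pDC, and 45.5% (35 of 77 UMIs) and 39.4% (13 of 33) in neutrophils. Of the 3 genes for subunit c, Atp5g2 held 50.2% of the UMIs in TG and 48.6% in WT, Atp5g3 held 35.0% and 36.6%, and Atp5g1 held 14.8% and 14.7%. Atp5g3 held 49.2% and 52.5% in neutrophils against 29.9% and 32.4% in mature B cells. The annotation lists transcripts of other genes that are at least 95% identical over at least 100 bases for 37 members, 13 of them with a copy in the table, and 27 members share exonic positions with a gene on the opposite strand. Whether counting used strand is not given in the sources used here, so counts of these members carry that uncertainty.

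Cluster 7 was the cluster with the highest member share in both libraries. It holds the dividing CD8αβ T cells, with Mki67, a marker of cycling cells, at 1127 (TG) and 1035 CPM (WT) against 23.9 and 8.46 CPM in the other CD8αβ T cells. It had 319 of the TG (31.3%) and 132 of the WT CD8αβ T cells (16.1%). Because clusters were drawn from the same transcripts, the values are a description with no test. Members made up 1.83% of UMIs in cluster 7 and 1.41% in the other TG CD8αβ T cells, a log2 ratio of 0.38 [0.36 to 0.40], and 1.80% and 1.25% in WT, a log2 ratio of 0.52 [0.49 to 0.55]. Median depth also differed, with 7454 UMIs per cell against 3869 in TG and 6614 against 2784 in WT, and ribosomal protein transcripts were lower in cluster 7, at 11.8% of UMIs against 20.3% and at 12.7% against 21.2%. Leaving ribosomal protein and mitochondrially encoded genes out of the total gave 0.21 and 0.33.

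Most members lay above 0, 76 of the 84 with at least 20 UMIs over both cell sets in TG and 74 of 84 in WT. These 2 counts have no share of all genes above 0 beside them. A log2 ratio of at least 0.5 was reached by 35 of 84 in TG, where 25.7% of all genes reached it, and by 51 of 84 in WT, where 27.4% did. A ratio of at most -0.5 was found for 2 members in TG (22% of all genes) and 3 in WT (23.2%). With ribosomal protein and mitochondrially encoded genes out of the total, 23 members in place of 37 passed 0.5 in size in TG and 34 in place of 54 in WT. The share of all genes under that total is not given here. In both libraries at once, 30 members were at or above 0.5 and 2 at or below -0.5, against 18.1% and 13.7% of all genes. The median over members was 0.40 in TG and 0.57 in WT, where the median over all genes was 0.03 and 0.04. By contrast the mitochondrially encoded genes had a summed log2 ratio of -0.23 in TG and -0.30 in WT, so nuclear UMIs per mitochondrial UMI were 0.358 in cluster 7 and 0.235 outside it in TG, and 0.306 and 0.173 in WT.

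By complex, the summed log2 ratios of cluster 7 in TG and WT were 0.37 and 0.54 for complex I, 0.47 and 0.51 for complex II, 0.39 and 0.53 for complex IV and 0.43 and 0.59 for complex V. The complex III sum was 0.18 and 0.29, below the median over its 8 members of 0.41 and 0.65. The assembly factors had sums of 0.08 and 0.04, whose intervals held 0, and medians of 0.21 and -0.14. Within complex II the subunits were unequal. Sdhb was at 179 CPM in cluster 7 and 90.5 CPM outside it in TG (log2 ratio 0.99 [0.76 to 1.21]) and at 152 and 63.9 CPM in WT (1.25 [0.90 to 1.60]). Sdhd, a membrane anchor, had ratios of 0.82 [0.58 to 1.06] and 0.69 [0.34 to 1.04]. For Sdhc, the other anchor, the ratios of 0.26 and 0.23 had intervals that held 0. Sdha, the catalytic flavoprotein, was lower in cluster 7 in TG, with 107 against 128 CPM (-0.26 [-0.49 to -0.02]), and had 139 against 138 CPM in WT (0.00 [-0.31 to 0.31]).

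The ratios of complex IV members also differed from each other. Cox5b, a matrix-facing nuclear subunit, was at 194 CPM in cluster 7 and 87.7 CPM outside it in TG (1.15 [0.92 to 1.37]) and at 156 and 82.3 CPM in WT (0.92). Cox5a had 344 against 189 CPM in TG and 326 against 147 CPM in WT (1.15 [0.92 to 1.39]), and Cox7a2 had ratios of 0.84 and 1.02. Cox4i1, the sole Cox4 gene counted, had smaller ratios of 0.17 [0.06 to 0.28] and 0.35 [0.19 to 0.51]. Cox7a2l went the other way from its paralogue Cox7a2. It stood at 273 CPM in cluster 7 and 456 CPM outside it in TG (-0.74 [-0.88 to -0.61]) and at 276 and 591 CPM in WT (-1.10 [-1.30 to -0.90]). A processed copy of Cox5b with 99.2% identity over 390 bases is in the table, so part of the Cox5b count could be assigned there.

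In complex I, Ndufs8, a core iron-sulphur subunit, had 46.7 CPM in cluster 7 and 23.2 CPM outside it in TG (1.01 [0.56 to 1.47]), and in WT a ratio of 0.41 whose interval held 0. Ndufb8, an accessory subunit of the membrane arm, had ratios of 0.86 [0.55 to 1.17] and 1.45 [0.95 to 1.95], and Ndufa11, Ndufc2 and Ndufa8 were also among the 5 highest with at least 50 UMIs in each profile in 1 of the libraries, at 0.88 (TG), 1.13 (WT) and 1.08 (WT). Ndufa6 was lower in both, at -0.49 [-0.72 to -0.26] and -0.40. The assembly factor Ndufaf4 was at 22.3 CPM in cluster 7 and 41.3 CPM outside it in TG (-0.89 [-1.38 to -0.41]) and at 33.0 and 54.1 CPM in WT (-0.71 [-1.33 to -0.13]). In complex III, Uqcrh was slightly lower, at -0.24 [-0.35 to -0.13] and -0.15 [-0.31 to -0.00]. Of the 84 members tested in both libraries, only Ndufaf7, chosen after its values were seen, passed 0.5 in opposite directions. It was at 0.85 in TG and -0.51 in WT, and 111 of 8788 genes were likewise opposite. Ndufaf7 has near-identical stretches in transcripts of 31 other genes, 21 of them counted here, so its count is uncertain.

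Complex V showed a split among the subunit c genes, which encode the same mature protein. Atp5g3 was at 770 CPM in cluster 7 and 398 CPM outside it in TG (0.95 [0.84 to 1.06]) and at 715 and 361 CPM in WT (0.99 [0.83 to 1.14]). Atp5g2 was at 854 and 792 CPM in TG (0.11 [0.02 to 0.20]) and at 717 and 567 CPM in WT (0.34 [0.20 to 0.48]). Atp5g1 had ratios of 0.18 and 0.56. The interval of Atp5g3 thus lay above those of the other 2 genes in both libraries.

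**Figure D3:**
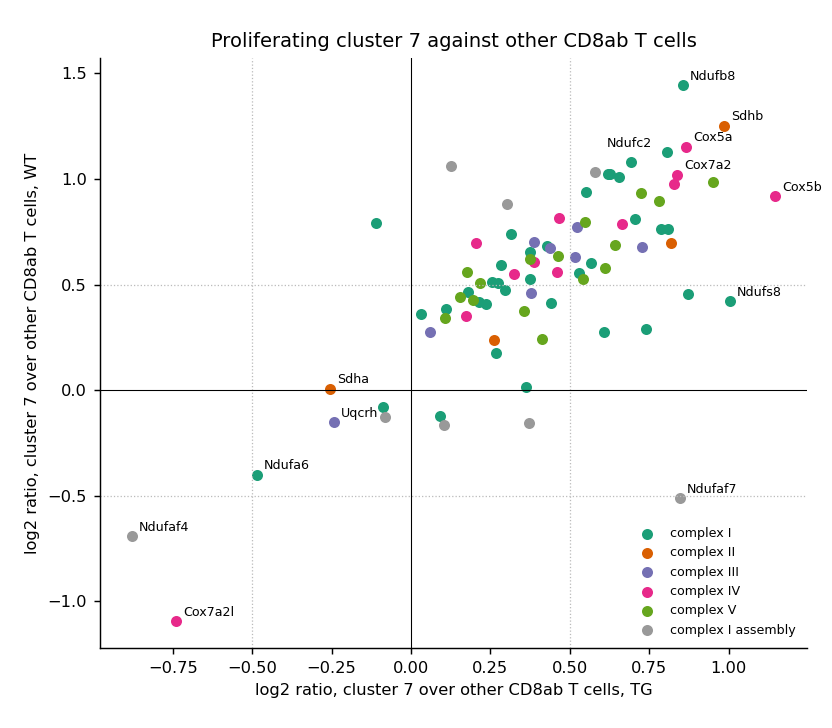
Each point is a member, coloured by complex, with its log2 ratio of cluster 7 over the other CD8αβ T cells in TG on the x axis and in WT on the y axis; dotted lines mark -0.5 and 0.5. Most points lie above 0 on both axes, with Sdhb at 0.99 and 1.25, and Cox7a2l is below 0 on both, at -0.74 and -1.10.

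Other mitochondrial gene lists were read in the same cells, where 25.7% of all genes in TG and 27.4% in WT were at or above 0.5 and 22% and 23.2% at or below -0.5. Of 77 genes of the mitochondrial ribosome, 27 in TG and 31 in WT had a log2 ratio of at least 0.5 and 2 and 5 of at most -0.5, with medians of 0.36 and 0.35. Of 13 genes of the tricarboxylic acid cycle, 5 and 6 reached 0.5 and none was at or below -0.5, with medians of 0.36 and 0.45, and Fh1 (fumarase) was at 1.54 and 1.30. The list of 8 carriers had medians of 0.51 and 0.57, among them Cycs (cytochrome c) at 105 against 46.5 CPM in TG (1.17) and 103 against 58.8 CPM in WT (0.81), and Vdac1, the outer membrane channel, at 0.89 and 1.43. For protein import, 5 and 9 of 23 tested reached 0.5, a share below that of all genes in TG, with medians of 0.16 and 0.38. Assembly factors outside the symbol rule had 6 of 35 and 13 of 32 at or above 0.5 and 5 in each library at or below -0.5. The list of 12 regulators had medians of -0.26 and -0.35, while its sum was 0.00 in TG and -0.11 in WT. Tfam, which maintains mitochondrial DNA, was at 0.75 and 0.48, Gabpa at 0.57 and 0.60, Myc at -0.95 and -1.18 and Ppargc1b at -1.39 and -2.28.

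TG and WT were compared class by class, which asks how the transgenic liver differs but rests on 1 library each. Over the 9 classes, the summed members had a log2 ratio of TG over WT of 0.24 [0.21 to 0.27] in CD4 T cells, 0.18 [0.16 to 0.19] in CD8αβ T cells, 0.13 [0.09 to 0.17] in Macro cells and 0.10 [0.08 to 0.12] in NKT cells. In NK cells it was 0.02 [-0.00 to 0.05], in mature B cells 0.00 [-0.02 to 0.02] and in CD8αα cells -0.01 [-0.05 to 0.03]. It was below 0 in immature B cells, -0.04 [-0.08 to -0.00] with a median over members of 0.02, and in Mono, -0.12 [-0.19 to -0.05], where the median was -0.07 over members and -0.08 over all genes. The mitochondrially encoded sum was below 0 in all 9 classes, from -0.37 in CD4 T cells and -0.28 in CD8αβ T cells to -0.02 in NK cells. Scaling by the trimmed mean of M values (TMM) moved the median over all genes by -0.12 in CD4 T cells and -0.10 in Macro cells and left members at 0.12 and 0.03 there, at 0.04 in NKT cells and at -0.04 in Mono. In NK and mature B cells TMM moved the sums up, by 0.06 and 0.05. The median over members less that over all genes was 0.08 in mature B, 0.05 in NK, 0.06 in NKT and 0.08 in Macro cells. The order of these 4 classes thus depended on the scaling.

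In CD8αβ T cells, 70 of 85 members lay above 0, with a median of 0.18 over members and 0.03 over all genes. The share of all genes above 0 is not given here. The 7 at or above 0.5 (14.1% of all genes) were Uqcr10, Atp5j2, Ndufs8, Ndufb8, Sdhb, Ndufa7 and Ndufaf1, and the 1 at or below -0.5 (10.9%) was Ndufaf4. Both counts are below the share of all genes. How much of the CD8αβ sum came from members past the threshold was not tested. With TMM the split was 6 and 2, and with ribosomal protein and mitochondrially encoded genes out of the total it was 4 and 2. Neither split has a share of all genes to set beside it. Sdhb had 131 (TG) and 91.0 CPM (WT) (0.53 [0.32 to 0.73]), while Sdha had 119 and 138 CPM (-0.22 [-0.40 to -0.04]), so the 2 catalytic subunits of complex II lay on opposite sides. Cox7a2l was at 373 and 494 CPM (-0.41 [-0.50 to -0.31]), Ndufaf4 at 32.6 and 47.6 CPM (-0.55) and Ndufaf2 at -0.49. By complex, the sums were 0.17 (I), 0.16 (II), 0.06 (III), 0.19 (IV) and 0.21 (V), and -0.12 for the assembly factors.

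The CD8αβ value differed between the clusters of the class. Cluster 7 was 31.3% of the TG and 16.1% of the WT cells, and within it the ratio was 0.03 [0.00 to 0.05]. It was 0.24 [0.19 to 0.28] in cluster 13, 0.19 [0.10 to 0.29] in cluster 18, 0.11 [-0.01 to 0.23] in cluster 23, 0.09 [0.05 to 0.13] in cluster 4 and -0.04 [-0.10 to 0.01] in cluster 12. Averaged over clusters with the WT cell numbers as weights, a choice made after seeing the data, it was 0.10. The reverse was seen in mature B cells, where cluster 1 had 0.06 [0.03 to 0.08] and cluster 17 had 0.08 [0.01 to 0.15] although the class as a whole had 0.00. Cluster 17, with the higher share (1.25% in TG and 1.18% in WT against 0.972% and 0.935% in cluster 1), was 29 of 1068 TG and 155 of 1494 WT cells.

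In CD4 T cells, 72 of 84 members lay above 0, with a median of 0.27 over members and 0.09 over all genes. That count has no share of all genes above 0 beside it. At or above 0.5 were 13 (21.2% of all genes), and Ndufaf3 was at or below -0.5 (11.6%). The 13 included the complex I genes Ndufb7 at 134 (TG) and 76.5 CPM (WT) (0.81 [0.44 to 1.17]) and Ndufb8, Cox5a at 214 and 135 CPM (0.67 [0.38 to 0.94]), Atp5d, the δ subunit of the ATP synthase stalk, at 224 and 146 CPM (0.62 [0.34 to 0.89]), and Sdhd at 122 and 79.6 CPM (0.62 [0.24 to 0.98]). The count of higher members is again below the share of all genes. Under TMM, 6 were above and 1 below, with no share of all genes given under that scaling. Cox7a2l was lower here too, at 426 and 550 CPM (-0.37 [-0.54 to -0.19]). The ratio was above 0 in each of the CD4 clusters, 0.14 [0.07 to 0.20] in cluster 6, 0.19 [0.15 to 0.24] in cluster 9 and 0.09 [0.02 to 0.17] in cluster 21. Within clusters the class average was 0.15.

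Counts in NKT, NK, CD8αα, B and Macro cells were below the share of all genes in each direction. NKT cells had 2 of 85 members at or above 0.5 (13.7% of all genes) and 2 at or below -0.5 (8.72%), NK cells 3 (11.7%) and 5 (15.4%) of 85, and CD8αα cells 4 (15.6%) and 8 (12.4%) of 82. Mature B cells had 3 of 86 (7.83%), namely Uqcr10, Atp5j2 and Cox6a2 (16 and 4 UMIs), and 0 of 86 lower (10.2%), while immature B cells had 7 (12.3%) and 6 (13.4%) of 83. Macro cells had 15 of 83 at or above 0.5 (20%) and 2 lower (12.5%). In Macro cells Sdhb was at 127 (TG) and 76.4 CPM (WT) (0.74 [0.30 to 1.17]) and Atp5g1 at 247 and 156 CPM (0.66 [0.35 to 0.96]). Their complex I sum was 0.19 and their complex III sum -0.02. Kupffer cell genes were near 0 in these TG cells, as given above. In WT, 318 of the 346 C1qa UMIs and 100 of the 102 Cd5l UMIs were in cluster 27. The 109 TG Macro cells lay in clusters 15 (89 cells) and 22 (20 cells), and none in cluster 27. The Macro class thus sets different mixes of cells side by side, and the part of this in the Macro values was not tested. Cluster 22 (20 TG and 80 WT cells), where the dendritic cell gene Xcr1 stood at 448 and 512 CPM, had a ratio of 0.26 [0.20 to 0.32] and cluster 15 one of 0.09 [0.05 to 0.14].

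Mono had 5 of 66 tested members at or above 0.5 (14.8% of all genes) and 13 at or below -0.5 (19.6%). With TMM the counts were 7 and 11, with no share of all genes given under that scaling. Among the 20 members with at least 50 UMIs in each profile, Ndufa3, a complex I accessory subunit, was lowest at 100.3 (TG) and 161 CPM (WT) (-0.68 [-1.18 to -0.19]), followed by Atp5j and Atp5a1, both at -0.54. The highest of these 20, Cox7c at 0.46, had an interval that held 0. In NK cells the lowest with at least 50 UMIs in each profile was Ndufa9 at 63.1 and 93.4 CPM (-0.57 [-0.91 to -0.23]), and 4 of the 5 lower NK members were assembly factors, whose sum was -0.26 [-0.48 to -0.04]. The NK cells lay in different clusters, with 343 of 759 TG and 22 of 615 WT cells in cluster 11. The assembly factor sum was -0.04 [-0.36 to 0.28] in cluster 3, -0.73 [-1.19 to -0.28] in cluster 8 and -0.09 [-1.10 to 1.15] in cluster 11. Cd3e was at 1608 (TG) and 122 CPM (WT) in cluster 3 and at 1401 and 130 CPM in cluster 11, but at 133 and 67.5 CPM in cluster 8. The part of this difference in the NK values was not tested. In immature B cells Ndufa4, Ndufab1 and Ndufb4 were lowest at -0.82, -0.62 and -0.60, and Atp5j2, Ndufa12 and Ndufb5 highest at 0.60, 0.58 and 0.51. The immature B cells had a complex II sum of 0.25 [0.03 to 0.46] beside a complex III sum of -0.19 [-0.31 to -0.07].

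A few members had the same sign in every class. Of the 66 tested in all 9 classes, 13 were higher in TG in each class and 1 was lower, where 5.47% and 4.8% of the 4335 genes tested in all classes did the same. Uqcr10, a small subunit of complex III, had a median log2 ratio of 0.83 over classes, from 0.55 in CD4 T cells to 1.26 in Mono. Its level was 121 CPM in TG and 60.0 CPM in WT CD8αβ T cells and 60.4 and 34.2 CPM in mature B cells. Atp5j2, subunit f of ATP synthase, had a median of 0.73 (0.48 to 0.90), with 188 and 111 CPM in CD8αβ T cells and 97.9 and 62.3 CPM in mature B cells. Ndufb8 had 0.58 (0.07 to 0.79) and Atp5g1 0.34 (0.10 to 0.66). Ndufa4 was the only member lower in all 9, with a median of -0.34 (-0.82 to -0.17), at 232 and 280 CPM in CD8αβ T cells and 119 and 211 CPM in immature B cells. In neutrophils, a class with fewer cells, Uqcr10 was at 59.4 CPM (20 UMIs) in TG and 76.2 CPM (7 UMIs) in WT, too few to read a direction.

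**Figure D4:**
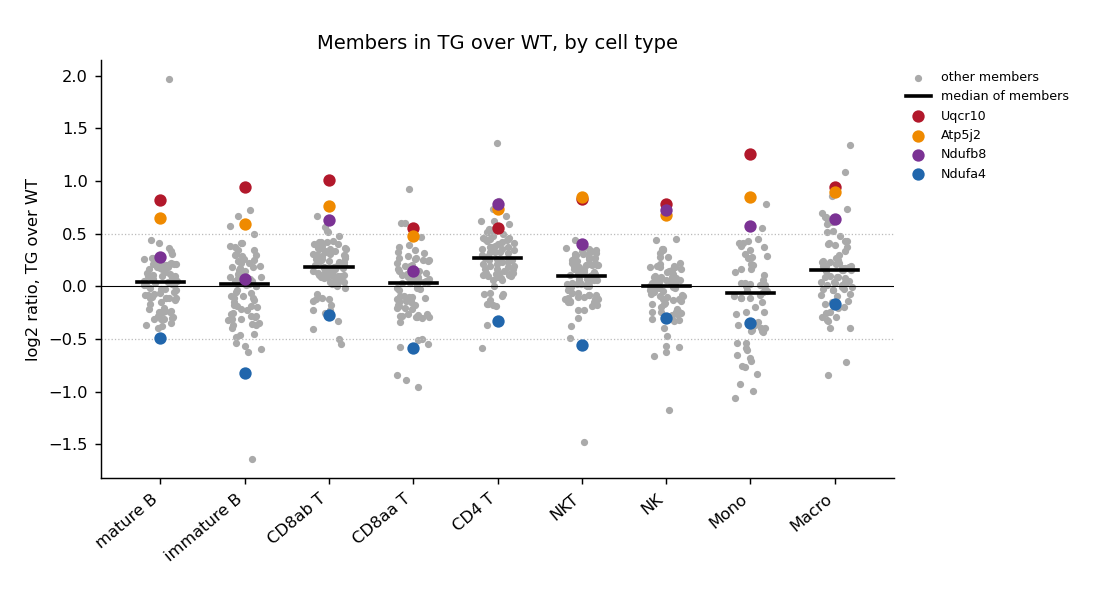
Points are the members' log2 ratios of TG over WT in each of 9 classes, with Uqcr10, Atp5j2, Ndufb8 and Ndufa4 in colour, the horizontal bar at the median over members and dotted lines at -0.5 and 0.5. Uqcr10 and Atp5j2 sit near or above 0.5 in every class and Ndufa4 below 0 in every class, while most members lie between the dotted lines.

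The same cells were also read by cluster. Uqcr10, Atp5j2, Ndufb8 and Ndufa4 had been picked for 1 sign in every class. Their cluster counts therefore largely restate that choice and are no separate support. Over the 26 clusters with at least 15 cells in both libraries, Atp5j2 was higher in TG in 25 of 26 with a median of 0.69, Uqcr10 in 21 of 24 tested with a median of 0.84 and Ndufb8 in 22 of 23 with a median of 0.54, while Ndufa4 was lower in 21 of 26 with a median of -0.45. The member sum was above 0 with its interval in 15 clusters, below in 3 and held 0 in 8, and the mitochondrially encoded sum was below 0 in 23 and above in 2. Uqcr10 lies at chr11:4701973-4704342 (minus strand), Atp5j2 at chr5:145183698-145192062 (minus), Ndufa4 at chr6:11900292-11907497 (minus) and Ndufb8 at chr19:44548572-44555440 (minus, GRCm38). Neither Atp5j2 nor Ndufa4 had a near-identical transcript elsewhere. Uqcr10 matched 191 bases of another transcript at 95.8%, and Ndufb8 shares its strand with an overlapping gene model over 134 identical bases.

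Each library also held cells with no genotype name in the deposited table, whose values are set beside those of the named cells as a description. They numbered 5379 in the first and 16829 in the second library and were given to no genotype. B and T cells were gated by their CD79 and CD3 transcripts in named and unnamed cells alike, on the library files. In T cells Uqcr10 had 102 CPM in cells named TG and 101 CPM in the unnamed cells of the same library, and at 56.8 CPM in WT and 59.0 CPM in the unnamed cells beside them. Atp5j2 was at 169 and 171 CPM in the first library and at 98.3 and 107 CPM in the second, and Ndufa4 at 202 and 201 CPM and at 243 and 258 CPM. For these 3 genes the values of named and unnamed cells of a library lay closer to each other than to those of the other library. The genotypes of the unnamed cells are not given, so the part of genotype and of library in these values was not tested. The log2 ratio between named cells of the libraries was 0.85 [0.70 to 1.00] for Uqcr10 in T cells, and between unnamed cells 0.77 [0.66 to 0.88]. Within the first library the ratio of TG over unnamed was 0.02 [-0.12 to 0.16].

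The 3 genes were also read in B cells. Uqcr10 had 61.1 CPM in cells named TG and 68.7 CPM in the unnamed cells of that library, against 35.5 CPM in WT and 41.5 CPM beside them. Atp5j2 stood at 103 and 99.8 CPM against 58.2 and 57.7 CPM, and Ndufa4 at 104 and 106 CPM against 149 and 177 CPM. Ndufb8, also higher in TG in every class, was less clear in B cells, at 39.3 and 42.0 CPM against 31.6 and 39.2 CPM. Its values in gated T cells are not given here.

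The summed members were compared in the same way. In gated T cells they were 1.47% of UMIs in TG and 1.44% in unnamed cells of the first library, 1.33% in WT and 1.39% in unnamed cells of the second. The log2 ratio was 0.14 [0.13 to 0.15] for TG over WT and 0.05 [0.04 to 0.06] for unnamed over unnamed. In B cells it was 0.04 [0.01 to 0.06] and 0.01 [-0.02 to 0.03]. Members at or above 0.5 numbered 3 of 86 in T cells for TG over WT (14.8% of all genes) and 3 of 88 for unnamed over unnamed (20.7%), with 0 (10.9%) and 1 (7.52%) at or below -0.5. In B cells they numbered 3 of 86 (9.25%) and 7 of 86 (12.3%), with 2 (8.86%) and 4 (7.73%) lower. The mitochondrially encoded share in T cells was 4.91% and 4.85% in the first library and 5.87% and 5.98% in the second. The gated sets differ in their mix of T cell types, which was not matched.

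**Figure D5:**
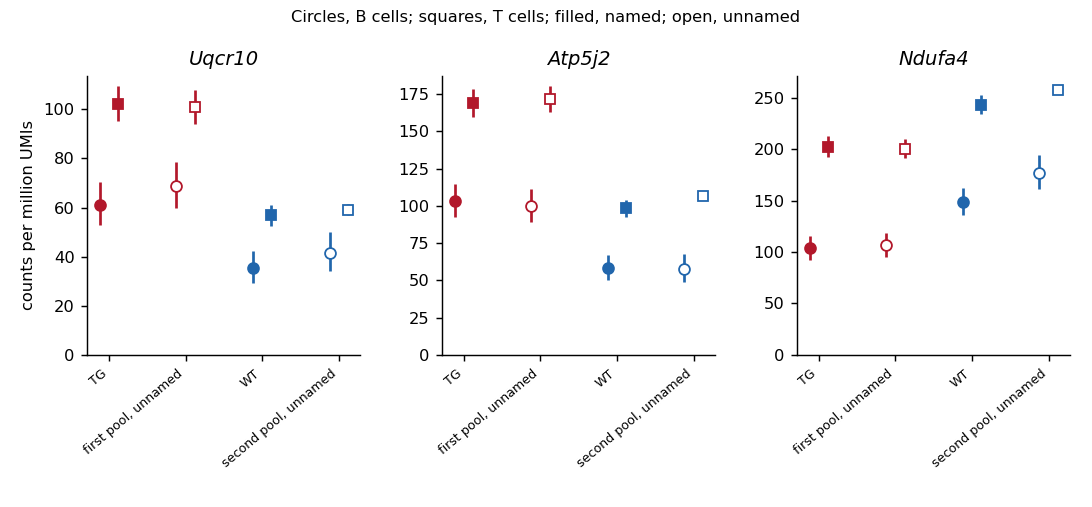
Levels in CPM of Uqcr10, Atp5j2 and Ndufa4 are shown for TG cells, unnamed cells of the first library, WT cells and unnamed cells of the second library, with circles for gated B cells and squares for gated T cells, filled for named and open for unnamed cells; bars are 95% Poisson intervals. In T cells Uqcr10 is at 102 and 101 CPM in the first library and at 56.8 and 59.0 CPM in the second.

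The same pathway lists were read between the genotypes. In CD8αβ T cells the medians of TG over WT were 0.10 for the mitochondrial ribosome (7 of 77 at or above 0.5, where 14.1% of all genes were, and 2 at or below -0.5, where 10.9% were), 0.18 for the tricarboxylic acid cycle, 0.13 for protein import, 0.03 for the carriers and 0.03 for assembly factors outside the rule, where the median over all genes was 0.03. Of the assembly factors, 2 of 36 were at or above 0.5 and 5 at or below -0.5. None of the genes of the cycle, the import machinery or the carriers reached 0.5 in either direction. In CD4 T cells the corresponding medians were 0.10, 0.06, 0.02, 0.21 and 0.15, against 0.09 over all genes. At or above 0.5 were 16 of 76 ribosome genes, 2 of 13 cycle genes, 6 of 22 import genes, 2 of 8 carriers and 8 of 31 assembly factors, where 21.2% of all genes were. At or below -0.5 were 6 ribosome genes, 1 import gene and 3 assembly factors, where 11.6% of all genes were. The regulators had medians of -0.07 and -0.35 in the 2 classes. Of the mitochondrially encoded genes, 4 of 13 in CD8αβ T cells (10.9% of all genes) and 6 of 13 in CD4 T cells (11.6%) were at or below -0.5 and none at or above 0.5.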

How the data were processed

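Liver CD45+ cells were profiled by BD Rhapsody capture with whole transcriptome amplification, antibodies and sample tags. Per the labels and methods, the authors aligned reads with STAR in the BD Rhapsody pipeline to mm10 and deposited UMI counts per gene and cell after error correction, for all called cells of each library and in a table of the named cells. The mitochondrial percent of each cell, the genotype, the class names and the clusters are also the authors' deposited values, the latter drawn after joining datasets in Seurat. No column of per-sample values was left unmapped (0). Normalised and antibody values were not used. The members and gene lists were chosen with earlier results of these data known.

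UMIs were added up over the cells of each set within a library, and ratios used total UMIs. The fold threshold was 0.5 on the log2 scale and a gene needed at least 20 UMIs over both sets. A pseudocount of 0.5 entered medians. Classes needed 100 cells and clusters 15 cells in both libraries. Gated B cells had at least 3 UMIs of Cd79a and Cd79b and no CD3, T cells at least 2 of Cd3d, Cd3e and Cd3g and no CD79, with at least 1000 UMIs and under 25% mitochondrial. Named members were, per comparison, the 5 highest and 5 lowest ratios among those with at least 50 UMIs in each profile, the 5 with the widest range over classes, isoform families, Sdha to Sdhd, and up to 5 members with 1 sign in every class. Other members are named where a count of 5 or fewer fell on them or an extreme is given, after their values were seen. Scrublet marked 39 TG (0.839%) and 241 WT cells (3.31%), which were kept. Cells holding B as well as T lineage transcripts numbered 343 in TG (7.38%) and 261 in WT (3.58%). Alternatives were TMM scaling (edgeR 4.0.16, R 4.3.3), other totals, equal weight of cells, thinning to 1000 UMIs, no doublets, a threshold of 1, structural subunits only and 3 added after seeing the data. The calculation of ratios and intervals was checked on simulated Poisson counts with known changes, which hold no variation between mice. Python 3.11.15, numpy 2.4.6, scipy 1.17.1, pandas 2.3.3, scanpy 1.11.5 and BLAST 2.17.0 were used.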

Additional observations from a re-analysis of the deposited data

Results flagged for a closer look

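The member sum of TG over WT was below 0 with its interval in immature B cells, at -0.04 on the log2 scale, and in the class named Mono, at -0.12, and stood at -0.01 in CD8αα cells with an interval that held 0, whereas it was above 0 in CD4 T, CD8αβ T, Macro and NKT cells. In Mono the median over all genes was -0.08 and that over members -0.07, and TMM scaling gave sums of -0.04 in Mono and 0.04 in NKT cells. The same scaling moved the sums of NK and mature B cells up by 0.06 and 0.05. The difference between the classes was not tested. Rare isoform genes outside the filtered table had UMIs in the library files. Ndufa4l2 had 4 UMIs in the first library and 7 in the second, and Cox4i2 had 6 in the second, all 6 in cells with no genotype name.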

How the results depend on the processing

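No paired analysis was possible because each genotype had 1 library and no replicate numbers link them. With TMM scaling the member sums (log2, TG over WT) were 0.052 in mature B, 0.16 in CD8αβ, 0.12 in CD4, 0.039 in NKT, 0.076 in NK, -0.035 in Mono and 0.029 in Macro cells, cluster 7 was at 0.34 (TG) and 0.44 (WT), and 7 CD4 members in place of 14 passed 0.5 in size. Without ribosomal protein and mitochondrially encoded genes in the total, the sums were 0.029 in mature B, 0.11 in CD8αβ and 0.14 in CD4 cells and 0.21 and 0.33 in cluster 7, the counts were 9 in CD4 cells and 23 and 34 in cluster 7 (37 and 54 before), and the overall shares were 1.64% (TG) and 1.58% (WT). With equal weight for each cell, the sums were 0.033 in mature B, 0.21 in CD8αβ, 0.19 in CD4 and 0.091 in Macro cells and 0.35 and 0.49 in cluster 7, the shares 1.24% and 1.195%, and nuclear UMIs per mitochondrial UMI 0.226 and 0.191. Thinning each cell to 1000 UMIs gave 0.037 in mature B, -0.10 in immature B, 0.20 in CD8αβ and 0.19 in CD4 cells, and 0.36 and 0.45 in cluster 7. Without doublets mature B cells were at 0.057. The median over members was 0.040 in mature B and 0.020 in immature B cells, where the sum of -0.04 thus changed sign, and 0.40 and 0.57 in cluster 7. Structural subunits alone gave 0.20 in CD8αβ cells and 0.41 and 0.57 in cluster 7. Within clusters (added after seeing the data) mature B, CD8αβ and CD4 cells were at 0.058, 0.10 and 0.15, and without clusters 4 and 13 (also added) cluster 7 was at 0.32 and 0.38. With a threshold of 1, the counts became 1 in mature B (from 3), 1 in immature B (13), 1 in CD8αβ (8), 0 in CD8αα (12), 1 in CD4 (14), 1 in NKT (4), 1 in NK (8), 2 in Mono (18) and 2 in Macro cells (17), and 2 (TG) and 12 (WT) in cluster 7. Shares of all genes are not given for these alternative settings, so the changed counts have no background beside them. The cause of these changes was not tested. Leaving out Uqcr10, Atp5j2 and Ndufa4 (added) moved no class sum beyond its interval. Intervals cover counting error only, and variation between mice is unknown.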

Other observations

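Ndufa4l2 in TG was seen in 4 named cells with 1 UMI each. In the annotation, a transcript of another gene matched Cox7a2l over 201 bases at 100%, with no entry of its own in the table.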
